A study of Mus musculus with 5 samples.

Results

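The Myc and Max network is a set of basic helix-loop-helix zipper transcription factors, and its 10 genes were taken by symbol from the 55487 gene identifiers of the count table. They comprise 3 activators (Myc, Mycn and Mycl), their partner Max, 5 repressors (Mxd1, Mxd3, Mxd4, Mxi1 and Mnt) and Mlx, and all 10 passed the filter on low counts. RNA was sequenced from common lymphoid progenitors, the marrow cells that give rise to B, T and natural killer cells, sorted as lineage-negative, CD127-positive and Flt3-positive. The 3 SF1 libraries came from mice carrying SclCre and JAK2-V617F, a constitutively active form of the kinase JAK2 found in myeloproliferative neoplasms, and the 2 WT libraries from wild-type mice. Marrow of both groups was taken 16 weeks after tamoxifen, and the series addresses how the mutant affects lymphoid differentiation. SclCre places the recombinase under control of the Scl (Tal1) gene, which is active in blood stem and progenitor cells. The labels give neither the ages of the mice, nor whether the wild-type mice carried the Cre transgene, nor whether a library held 1 animal or a pool. The p-values therefore measure the spread between these libraries, which may be technical.

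Myc proteins bind DNA as dimers with Max, most strongly at the E-box CACGTG, and raise the transcription of genes for ribosome production, nucleotide synthesis and cell division. Mxd proteins, Mxi1 and Mnt compete for Max and for the same sites, and recruit Sin3 and histone deacetylases to repress them. Mlx is a Max-like protein that pairs with the glucose-sensing Mondo factors and with some of the repressors. In lymphoid progenitors Myc supports the growth and division that cytokine receptors call for, and it is lowered as cells leave the cycle.

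The E-box was looked for in the RefSeq promoter windows of the network (build GRCm38.p6), each from 250 bases before to 50 bases after a gene's start. Windows were found for 9 of the 10 genes, not for Myc, and 4 of these 9 held CACGTG. Among tested genes with a window 11.7% held it, and among all windows 7.15% did. The motif reads the same on both strands. The 4 network promoters are shown as 60 bases around the motif, which stands in capitals, because they are the members with the sequence to which the network's own proteins bind. Mnt was read from chr11:74830774-74830833 (plus strand), Mxd4 from chr5:34187897-34187956 (minus strand), Mlx from chr11:101087223-101087282 (plus strand) and Max from chr12:76962219-76962278 (minus strand).
Mnt: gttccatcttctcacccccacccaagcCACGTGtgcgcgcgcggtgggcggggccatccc
Mxd4: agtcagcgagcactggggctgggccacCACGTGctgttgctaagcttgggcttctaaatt
Mlx: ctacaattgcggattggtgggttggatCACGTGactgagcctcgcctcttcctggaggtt
Max: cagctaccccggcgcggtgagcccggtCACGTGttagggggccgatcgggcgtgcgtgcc
Counted from the RefSeq start of each window, the motif's first base lay 123 bases before the start in Mnt, 219 in Mxd4, 40 in Mlx and 3 in Max. These starts differ from the gene bounds given below, which come from GENCODE M21. A match describes the letters only and shows no binding.

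The SF1 libraries held from 9350767 to 11290082 counts each, and WT replicates 1 and 2 held 20424296 and 8894288. Of 14423 genes tested, 16.5% were called at an adjusted p under 0.05, 6.77% as higher and 9.74% as lower in SF1 (edgeR quasi-likelihood F test, p-values adjusted by the Benjamini-Hochberg method). The groups did not overlap for 49% of the genes tested. The sort label was met by RNA of Flt3, Il7r (which encodes CD127) and Dntt, the terminal transferase of lymphoid progenitors, in every library, with Dntt between 4875 and 5364 CPM (the count scaled to library depth by the TMM method) in SF1 and at 5136 and 4976 CPM in WT. Of 8 listed markers of common lymphoid progenitors, 3 were higher, 1 was lower and 4 did not pass, so these markers were not all alike between the groups. Jak2 was at 67.9, 67.6 and 63.2 CPM in SF1 and 58.3 and 35.4 CPM in WT and did not pass (adjusted p = 0.104), and these counts are no check of the mutant allele. Markers of macrophages were lower in 5 of 8 tested genes, with Cd5l and Mertk at 0 in all SF1 libraries, and markers of plasma cells higher in 3 of 8.

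Of the 10 genes, Myc and Mnt fell, Mycl rose and 7 did not pass the test. The count of 1 higher and 2 lower stands beside the 6.77% and 9.74% of all genes tested. SF1 and WT libraries did not overlap for 7 of the 10, against 49% of all genes. The median log2 fold change of the 10 was 0.12, and that of all genes tested was 0.02.

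**Figure D1:**
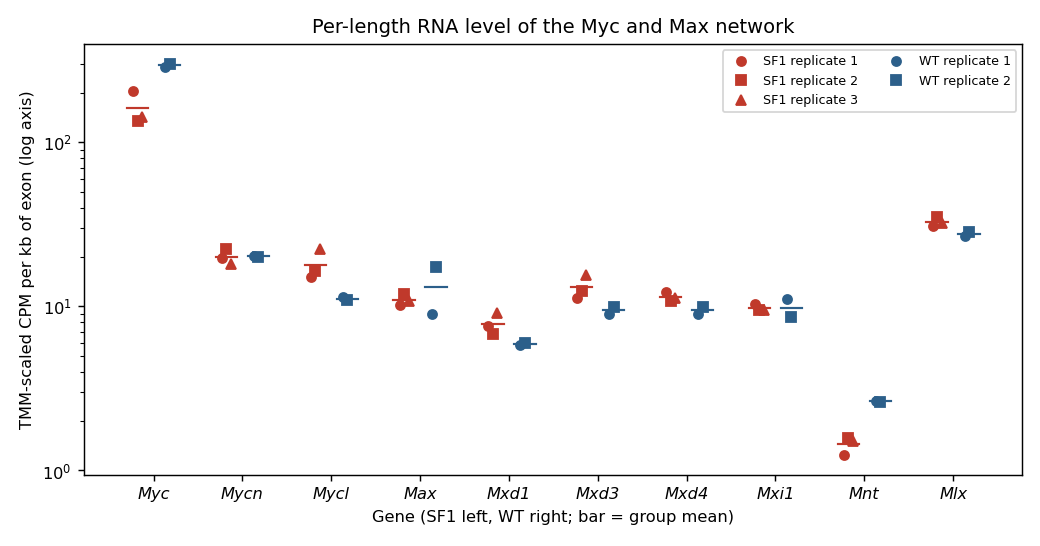
Each point is 1 library's level of 1 gene in TMM-scaled CPM per kb of exon on a log axis, with SF1 in red left of WT in blue, and horizontal bars give group means. Myc stands above all other genes in every library and is lower in the 3 SF1 libraries, while Mnt is the lowest gene in every library.

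Myc was the most abundant member and it fell in SF1. The gene (ENSMUSG00000022346, GRCm38 chromosome 15, 61985391 to 61990374, plus strand) had 557, 368 and 387 CPM in SF1 replicates 1, 2 and 3, against 785 and 819 CPM in WT replicates 1 and 2. All SF1 libraries lay below both WT libraries, and SF1 replicate 1 lay nearest to them. The means were 437 ± 104 CPM in SF1 and 802 ± 24.2 CPM in WT (SD, n = 3 and 2), a log2 change of -0.87 with an SE of 0.16 (adjusted p = 0.00663), so that Myc was 1.83-fold lower in SF1. The call held under each of the 13 other settings tried, with log2 fold changes from -1.08 to -0.76 and adjusted p-values up to 0.0328. Fewer cells with Myc RNA and less Myc RNA per cell cannot be told apart in these bulk libraries.

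Mycn, the family member best known from neural and embryonic cells and from blood stem cells, did not pass. Mycn (ENSMUSG00000037169, chromosome 12, 12936093 to 12941914, minus strand) had 64.8, 73.1 and 59.98 CPM in SF1 replicates 1, 2 and 3, against 67.1 and 66.2 CPM in WT replicates 1 and 2 (log2 change -0.01, SE 0.11, 0.949 adjusted). Both WT values lay within the SF1 range.

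Mycl rose in SF1. This activator, which in mice is known for its expression in dendritic cells, lies on chromosome 4 (ENSMUSG00000028654, 122995652 to 123002485, plus strand). It had 60.6, 66.2 and 89.8 CPM in SF1 replicates 1, 2 and 3, against 46.1 and 43.9 CPM in WT, with no overlap and SF1 replicate 3 highest. The log2 change was 0.68 with an SE of 0.16 (adjusted p = 0.0233), a 1.60-fold rise. Mycl missed the threshold when SF1 replicate 2, WT replicate 1 or WT replicate 2 was left out (adjusted p = 0.0520, 0.0966 and 0.0796), at log2 fold changes of 0.74, 0.72 and 0.64. Dendritic genes were also higher. Of 9 measured markers of plasmacytoid dendritic cells, 7 were higher and none lower in SF1, beside 6.77% of all genes tested called higher. Their summed level was between 2017 and 2552 CPM in SF1 and between 1154 and 1319 CPM in WT, with no marker at 0. Their part in the rise of Mycl was not tested.

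With lengths taken into account, Myc dominated the activators in every library, but less so in SF1. Per kb of exon, Myc stood at 161 ± 38.3 CPM per kb in SF1 and 295 ± 8.92 CPM per kb in WT. Mycn stood at 20.02 ± 2.02 CPM per kb in SF1 and 20.2 ± 0.193 CPM per kb in WT. Mycl stood at 17.9 ± 3.84 CPM per kb in SF1 and 11.1 ± 0.391 CPM per kb in WT. Myc therefore made up 85.5, 77.8 and 77.9% of the summed activator level in SF1 replicates 1, 2 and 3, against 90.1 and 90.7% in the WT libraries. Mycl made up 6.26, 9.41 and 12.2% in the SF1 libraries, against 3.56 and 3.27% in the WT libraries. The ratio of Mycn to Mycl was 1.31, 1.36 and 0.819 in SF1, against 1.78 and 1.85 in WT, so that Mycl exceeded Mycn only in SF1 replicate 3 among the 5 libraries.

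Max, the partner that Myc needs to bind DNA, did not pass, and its WT libraries disagreed. Max (ENSMUSG00000059436, chromosome 12, 76937269 to 76962201, minus strand) had 36.4, 42.8 and 38.5 CPM in SF1, against 32.5 and 62.2 CPM in WT. The SF1 values lay between the WT values. The log2 change was -0.25 with an SE of 0.23 (adjusted p = 0.511), and its sign was set by the WT library kept. Without WT replicate 1 Max was called lower (-0.66 on the log2 scale, 0.0282 adjusted), and without WT replicate 2 the value was 0.27 (adjusted p = 0.300). Per kb of exon, Myc exceeded Max 20.3-fold, 11.4-fold and 13.3-fold in SF1 replicates 1, 2 and 3, against 32.02-fold and 17.4-fold in WT replicates 1 and 2, so these ratios overlapped between the groups.

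Mnt, a broadly expressed antagonist that shares the DNA sites of Myc, was the only repressor to pass and it fell. Mnt (ENSMUSG00000000282, chromosome 11, 74830920 to 74845725, plus strand) had 54, 84 and 76 counts in SF1 and 245 and 107 counts in WT, the fewest of the network. These counts came to 5.73, 7.34 and 6.97 CPM in SF1, against 12.3 and 12.2 CPM in WT. All SF1 libraries lay below both WT libraries, 1.83-fold lower on average (adjusted p = 0.0186 for a log2 change of -0.87, SE 0.20). It missed the threshold when WT replicate 1 (-0.86, 0.109 adjusted) or WT replicate 2 (-0.88, 0.0570 adjusted) was left out, and after correction for GC content and length (-0.56, 0.0986 adjusted).

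**Figure D2:**
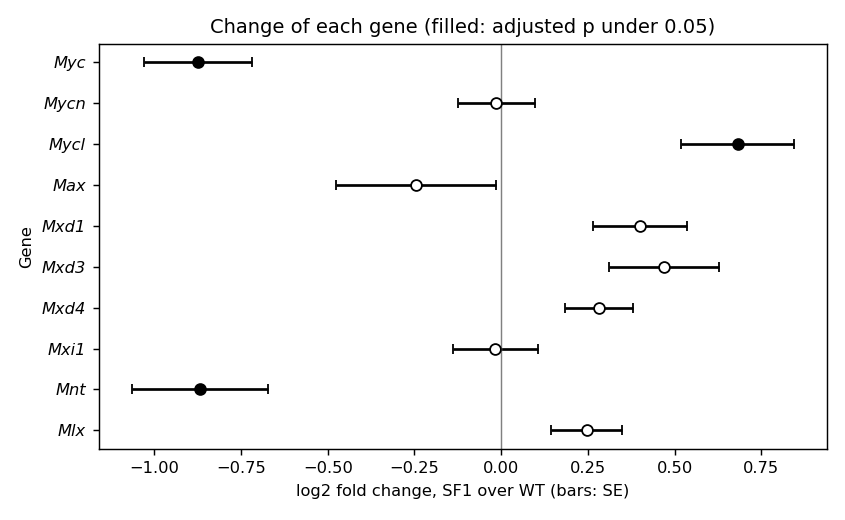
Points are log2 fold changes of SF1 over WT for each gene and bars are standard errors, with filled points for an adjusted p under 0.05. Myc and Mnt lie at -0.87, Mycl at 0.68, and Mxd1, Mxd3, Mxd4 and Mlx lie to the right of 0 without passing.

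The 3 Mxd genes had higher values in all SF1 libraries than in both WT libraries, but none passed the test. Mxd1, which in mice and humans is induced as myeloid cells mature (ENSMUSG00000001156, chromosome 6, 86647042 to 86669161, minus strand), had 53.5, 48.1 and 64.3 CPM in SF1, against 41.4 and 42.5 CPM in WT (adjusted p = 0.0780 for a log2 change of 0.40, SE 0.14). Mxd3, which is known from dividing cells in S phase (ENSMUSG00000021485, chromosome 13, 55325168 to 55329823, minus strand), had 26.8, 29.2 and 36.8 CPM in SF1, against 21.3 and 23.5 CPM in WT (adjusted p = 0.0767 for a log2 change of 0.47, SE 0.16). Mxd4, associated with cells leaving the cycle (ENSMUSG00000037235, chromosome 5, 34173883 to 34187720, minus strand), had 104, 91.6 and 96.0 CPM in SF1, against 75.7 and 84.6 CPM in WT (adjusted p = 0.0827 for a log2 change of 0.28, SE 0.10).

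These 3 genes moved across the threshold with the processing. After correction for GC content and length, Mxd1 and Mxd4 were called higher (log2 fold change 0.52 and 0.40, adjusted p = 0.0343 and 0.0287). With no filter on low counts Mxd1 and Mxd3 were (0.38 and 0.45, adjusted p = 0.0362 and 0.0445). Leaving out that filter shifted edgeR adjusted p-values far at similar log2 fold changes. Myc, at -0.89, had 5.6e-24, while Mlx, at 0.23, had 0.298. Neutrophil genes moved with the groups: 13 of 14 measured markers were higher and none lower in SF1, beside 6.77% of all genes called higher. The remaining marker had a negative log2 fold change without passing, and the median of the 14 was 4.43. Their summed level was between 2104 and 5540.1 CPM in SF1 and between 928 and 1192 CPM in WT, and no marker was at 0. SF1 replicate 3 was highest in that sum, in Mxd1, in Mxd3 and in Mycl, whereas Mxd4 was highest in SF1 replicate 1. The part of neutrophil RNA in these values was not tested.

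Mxi1, a repressor closely related to the Mxd proteins, did not pass. Mxi1 (ENSMUSG00000025025, chromosome 19, 53310518 to 53375810, plus strand) had 70.2, 64.8 and 64.6 CPM in SF1, against 75.5 and 58.4 CPM in WT, so that the WT values lay on either side of the SF1 values (adjusted p = 0.942 for a log2 change of -0.02, SE 0.12).

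Mlx (ENSMUSG00000017801, chromosome 11, 101087277 to 101092207, plus strand) had 61.9, 70.1 and 64.6 CPM in SF1, against 53.7 and 57.0 CPM in WT. The groups did not overlap, but the gene did not pass (adjusted p = 0.139 for a log2 change of 0.25, SE 0.10), nor did it in any of the 13 other settings. Exons of Mlx share 385 bases with Psmc3ip on the opposite strand, those of Mxd3 105 bases with Prelid1, those of Mxd4 514 bases with an antisense gene and those of Mxi1 194 bases with another gene. The libraries do not mark strand, so reads over these stretches cannot be told apart.

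In order of level per kb of exon, Myc, Mlx and Mycn led, in that order, in both groups, while Mxd1 came next to last and Mnt last. Mlx was at 32.8 ± 2.09 CPM per kb in SF1 and 27.7 ± 1.13 CPM per kb in WT. The ranges of Mycn and Mycl overlapped in SF1 and did not in WT. In SF1 the neighbours from Mycn down to Mxi1 (Mycl, Mxd3, Mxd4, Max, Mxi1) overlapped pairwise, and in WT those from Max down to Mxd4 did (Mycl, Mxi1, Mxd3), so the order among them is not fixed by these libraries. Mnt was at 1.44 ± 0.176 CPM per kb in SF1 and 2.64 ± 0.0219 CPM per kb in WT.

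Set against each other, the activators outweighed the repressors in every library and by less in SF1. The summed level of Myc, Mycn and Mycl was 240, 174 and 183 CPM per kb in SF1 and 321 and 332 CPM per kb in WT. For Mxd1, Mxd3, Mxd4, Mxi1 and Mnt together it was 42.7, 41.0 and 46.9 CPM per kb in SF1 and 37.5 and 37.1 CPM per kb in WT. The ratio of the sums was 5.62, 4.24 and 3.90 in SF1 replicates 1, 2 and 3, against 8.54 and 8.96 in the WT libraries. On the log2 scale the mean ratio was 2.18 ± 0.28 in SF1 and 3.13 ± 0.05 in WT, and the difference of SF1 minus WT was -0.95. The groups did not overlap, and the difference lay between -1.10 and -0.84 when any 1 library was left out. No test is given for this ratio, since it sums genes that were chosen with results known, and Myc is the largest term in it. Against Mnt, the only repressor called, Myc per kb stood 166-fold, 85.4-fold and 94.5-fold higher in SF1 replicates 1, 2 and 3. In WT replicates 1 and 2 it stood 109-fold and 115-fold higher, so Myc to Mnt overlapped between the groups.

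**Figure D3:**
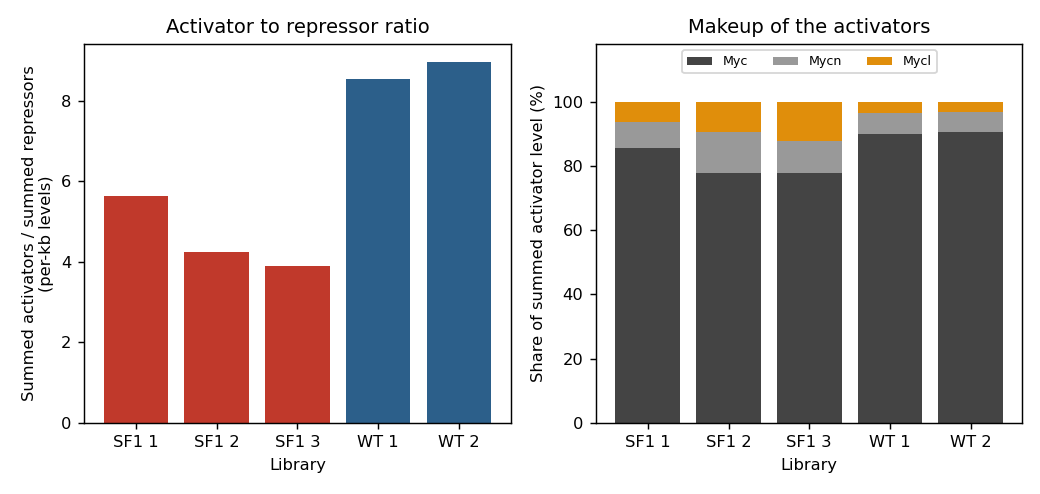
The left bars give, for each library, the summed per-kb level of Myc, Mycn and Mycl over that of the 5 repressors, and the right bars split the activator sum into its genes in percent. The ratio is between 3.90 and 5.62 in the SF1 libraries and 8.54 and 8.96 in WT, and the share of Mycl is larger in each SF1 library.

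Genes that Myc is known to activate for ribosome production were lower in SF1 as far as they passed. Of 24 such genes, all tested, 16 were lower, none was higher and 8 did not pass, beside 9.74% of all genes tested called lower. This list and those below were chosen with earlier results of these data known, so their shares are a description only. All 24 had a negative log2 fold change, with a median of -0.43 against 0.02 over all genes. Rrp12, which helps export ribosomal subunits, had 38.0, 33.3 and 36.6 CPM in SF1, against 81.0 and 70.5 CPM in WT (log2 fold change -1.08, adjusted p = 0.000717). Rrs1, a ribosome assembly factor, had 53.5, 46.8 and 52.2 CPM in SF1, against 96.7 and 92.4 CPM in WT (-0.90, adjusted p = 0.000943). Ncl, the nucleolar protein nucleolin, averaged 836 ± 48.6 CPM in SF1 and 1228 ± 9.85 CPM in WT (log2 change -0.56, 0.00172 adjusted), and Polr1b, a subunit of RNA polymerase I, 81.8 ± 0.367 CPM in SF1 and 126 ± 11.3 CPM in WT (log2 change -0.62, adjusted p = 0.00262). The libraries of the groups did not overlap for 22 of the 24, beside 49% of all genes tested. Without WT replicate 1, 10 of the 24 were called lower.

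Of these 24 genes, 19 had a promoter window and 5 of the 19 held CACGTG, beside 11.7% of tested genes with a window. All 5 were among the lower genes, as were 16 of the 24. In the lists below, 5 of 21 metabolic and 6 of 15 translation and folding genes with a window held it. So did 1 of 16 cell cycle genes and 3 of 12 genes that Myc is known to repress. For each of the 5 ribosome genes, 30 bases holding the motif are shown, since these are listed Myc targets that were called lower and carry the motif. Nop2 was read from chr6:125131811-125131840, Pes1 from chr11:3963965-3963994, Mybbp1a from chr11:72441347-72441376 and Wdr43 from chr17:71616220-71616249, all on the plus strand, and Utp20 from chr10:88826765-88826794 on the minus strand.
Nop2: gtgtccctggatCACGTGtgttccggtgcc
Pes1: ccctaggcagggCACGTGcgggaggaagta
Mybbp1a: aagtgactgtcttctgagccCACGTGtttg
Wdr43: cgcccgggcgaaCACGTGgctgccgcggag
Utp20: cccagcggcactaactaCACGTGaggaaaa
Nop2, a methyltransferase of ribosomal RNA, was at -0.55 on the log2 scale (adjusted p = 0.00608), Mybbp1a, a nucleolar Myb-binding protein, at -0.53 (0.00389 adjusted) and Wdr43, a factor of small-subunit assembly, at -0.41 (0.00714 adjusted). Utp20, another small-subunit factor, was at -0.85 (adjusted p = 0.00794), a call lost without WT replicate 1 (adjusted p = 0.0720). Pes1, a factor of large-subunit assembly, was at -0.35 (adjusted p = 0.0368), and it missed the threshold when any 1 library other than SF1 replicate 2 was left out (adjusted p between 0.0689 and 0.173). These 5 were chosen by the motif after their values were known.

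Metabolic genes known as Myc targets were also lower where they passed. Of 25 genes 24 were tested, 11 were lower, none was higher and 13 did not pass, with a median log2 fold change of -0.29, beside 9.74% of all genes tested called lower. Cad, which starts pyrimidine synthesis, had 97.0, 99.3 and 87.2 CPM in SF1, against 285 and 227 CPM in WT, 2.71-fold lower (adjusted p = 0.000209). Slc16a1, a lactate transporter, was 1.82-fold lower (adjusted p = 0.00221), Srm, the spermidine synthase, 1.45-fold (adjusted p = 0.00292) and the purine synthesis gene Gart 1.41-fold (adjusted p = 0.00579). Odc1, the ornithine decarboxylase long used as a Myc target, averaged 87.8 ± 7.10 CPM in SF1, against 108 ± 1.06 CPM in WT, and did not pass (adjusted p = 0.0648), though it did without the filter on low counts (0.0384 adjusted). Tfrc, the transferrin receptor, lay the other way without passing, at 0.39 on the log2 scale (adjusted p = 0.0775), and was called higher by DESeq2 (adjusted p = 0.0349), without the filter on low counts (0.00127 adjusted) and without WT replicate 1 (0.0139 adjusted). It was the only metabolic gene higher at an unadjusted p under 0.05. The count of lower genes was 7 without SF1 replicate 3 and 6 without WT replicate 1, where 2 genes were called higher.

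Of 16 translation and protein folding genes, 5 were lower, none was higher and 11 did not pass (median -0.16), beside 9.74% of all genes tested called lower. Tomm40, the mitochondrial import pore, was 1.90-fold lower (adjusted p = 0.000681) and the translation initiation scaffold Eif4g1 1.80-fold (adjusted p = 0.00135). The mitochondrial genes Phb and Hspd1 were at -0.41 and -0.37 on the log2 scale (adjusted p = 0.0169 and 0.0229), and both missed the threshold when any 1 library other than SF1 replicate 1 was left out (adjusted p between 0.0508 and 0.0968). Leaving out any 1 of those 4 libraries left 2 genes called lower.

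Of 18 cell cycle targets, 4 were lower, none was higher and 14 did not pass (median -0.18), beside the same 9.74%. Cdt1, which licenses replication origins, averaged 86.3 ± 13.3 CPM in SF1 and 153 ± 3.70 CPM in WT (log2 fold change -0.82, adjusted p = 0.00284). Mcm4, Mcm7 (subunits of the replicative helicase) and Cdc25a (a cell cycle phosphatase) were at -0.34, -0.27 and -0.40 (adjusted p = 0.0280, 0.0372 and 0.0308). Their calls depended on single libraries: Mcm4, Mcm7 and Cdc25a all missed the threshold when SF1 replicate 2, SF1 replicate 3 or WT replicate 1 was left out (adjusted p between 0.0505 and 0.183), which left 1 gene called, and Cdc25a and Mcm7 also missed it without WT replicate 2 (0.0562 and 0.0606). After the GC content and length correction Mcm7 missed it too (adjusted p = 0.183). Among the ribosome, translation and cell cycle genes, 0 were higher at an unadjusted p under 0.05 in edgeR, and 0 were called higher by DESeq2 or limma. Of all 14423 genes tested, DESeq2 called 1019 higher and limma 1021.

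**Figure D4:**
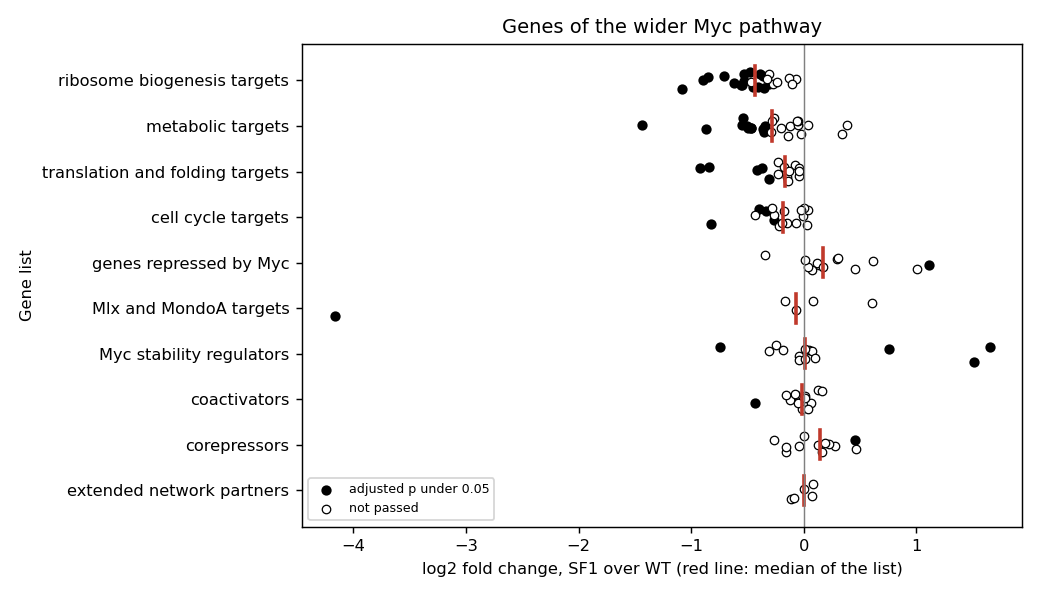
Each point is 1 tested gene of a list, placed by its log2 fold change of SF1 over WT and filled where the adjusted p is under 0.05, and red lines are list medians. All 24 ribosome biogenesis genes lie left of 0, and 1 called gene of the Mlx list lies far left, at a fitted -4.17 that rests on 2 counts in SF1.

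Among 13 tested genes that Myc is known to repress (of 14), 1 was higher, none was lower and 12 did not pass. The share called higher was near the 6.77% of all genes tested that were higher. Gadd45b, a stress-induced growth regulator, had 7.75, 11.97 and 14.3 CPM in SF1, against 4.37 and 6.37 CPM in WT (adjusted p = 0.0368 for a log2 change of 1.11). All SF1 libraries lay above both WT libraries. Gadd45b missed the threshold when SF1 replicate 2, SF1 replicate 3 or WT replicate 1 was left out (adjusted p = 0.107, 0.106 and 0.242). Ndrg1, the N-myc downstream regulated gene, was at 0.45 (adjusted p = 0.0536, and past the threshold under 8 of the 13 other settings), its relative Ndrg2 at 1.01 (0.0862 adjusted) and the stress gene Gadd45a at 0.62 (0.104 adjusted). At an unadjusted p under 0.05, 5 genes of the list were higher and 0 lower in edgeR. The share of all genes at that unadjusted p is not given, so this count is a description only. DESeq2 and limma each called 2 genes of the list higher and 0 lower. Of all 14423 genes tested, DESeq2 called 1019 higher and limma 1021. The cell cycle inhibitor gene Cdkn2b had 0 counts in every library.

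Of 5 listed targets of Mlx with its Mondo partners, 1 was lower and 4 did not pass, beside 9.74% lower among all genes tested. Txnip, the best known of them and a brake on glucose uptake, had 379, 290 and 367 CPM in SF1, against 292 and 362 CPM in WT (adjusted p = 0.721 for a log2 change of 0.08). Arrdc4, its relative, had 27.0, 23.2 and 30.7 CPM in SF1, against 15.2 and 20.8 CPM in WT (adjusted p = 0.0532 for a log2 change of 0.60, and past the threshold under 5 of the 13 other settings), and Klf10, a growth-inhibiting transcription factor, was at -0.17 (adjusted p = 0.347). Pklr, a pyruvate kinase of liver and red cells, had 2 counts in SF1 against 39 in WT, a ratio of WT over SF1 of 21.6 (95% counting interval 5.59 to 184; counting error only). It was called lower (adjusted p = 0.0137), but did not pass the filter on low counts, and so was not tested, without WT replicate 1, with thinned counts or with the stricter filter. Erythroid markers moved the same way: 7 of 10 tested, of 12 listed, were lower in SF1 and none higher, with a summed level between 77.8 and 104 CPM in SF1 and between 185 and 216 CPM in WT and Hba-a2 at 0 in all SF1 libraries. Their part in Pklr was not tested.

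Of 6 further partners, 5 were tested and none passed, in edgeR, with 0 at an unadjusted p under 0.05 and 0 called by DESeq2 or limma. Mlxip, which encodes MondoA, was at 0.07 on the log2 scale (adjusted p = 0.632), the dual Max and T-box factor gene Mga at -0.11 (0.582 adjusted), Zbtb17, which encodes the Myc-binding factor Miz1, at -0.08 (0.588 adjusted) and the E-box factor gene Usf1 at 0.09 (0.589 adjusted). Of 12 corepressor genes that the Mxd proteins and Mnt can recruit, 1 was higher, a share near the 6.77% of all genes tested that were higher. This gene, Ncor1, a scaffold for histone deacetylases, had 370, 337 and 337 CPM in SF1, against 260 and 248 CPM in WT (adjusted p = 0.00643 for a log2 change of 0.45). Suds3, Sin3a and Arid4b, parts of the Sin3 complex, were at 0.47, -0.27 and 0.28 (adjusted p = 0.0536, 0.102 and 0.107). Suds3 was called higher under 7 of the 13 other settings, DESeq2 (adjusted p = 0.0225) and the GC content and length correction (0.00892 adjusted) among them. Sin3a was called lower under 1, without the filter on low counts (0.0456 adjusted), and Arid4b higher under 1, without WT replicate 2 (0.0410 adjusted). Of 13 coactivator genes, 1 was lower, a share near the 9.74% of all genes tested that were lower. The gene called, the histone acetyltransferase Kat2a, averaged 132 ± 3.73 CPM in SF1 and 178 ± 10.8 CPM in WT (-0.43 on the log2 scale, 0.00824 adjusted, and 0.0696 adjusted without WT replicate 1). The other named coactivators, the chromatin genes Wdr5, Kat5 and Ruvbl1, were at -0.16, 0.16 and -0.13 (adjusted p = 0.205, 0.407 and 0.418).

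Of 14 genes for enzymes and scaffolds that set the stability of the Myc protein, 3 were higher, 1 was lower and 10 did not pass, beside 6.77% higher and 9.74% lower among all genes tested. Ppp2r5a, the phosphatase subunit that targets Myc in human cells, had 199, 204 and 209 CPM in SF1, against 79.3 and 48.7 CPM in WT, a 3.14-fold rise (adjusted p = 0.000717). Axin1, a scaffold for phosphorylation and breakdown of Myc, had 128, 103 and 128 CPM in SF1, against 55.5 and 26.0 CPM in WT (2.85-fold, adjusted p = 0.00564). The WT libraries differed, and the log2 change of Axin1, 1.51 over all libraries, was 2.195 without WT replicate 1 and 1.10 without WT replicate 2, past the threshold in both. Pim2, a kinase, rose 1.69-fold (adjusted p = 0.00311). Usp36, a nucleolar deubiquitinase that stabilises Myc in human cells, had 37.5, 41.4 and 48.2 CPM in SF1, against 73.0 and 69.0 CPM in WT (log2 fold change -0.74, adjusted p = 0.00509). Fbxw7, the ubiquitin ligase component that marks Myc for breakdown, was at -0.24 (adjusted p = 0.157). RNA levels do not measure Myc protein.

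B-lineage genes moved in the direction of Myc. Of 11 measured markers 8 were lower and none higher in SF1, beside 9.74% of all genes tested called lower. Of the 11, 1 had a positive log2 fold change without passing. Their summed level was between 1284 and 1787 CPM in SF1 and between 2039 and 2284 CPM in WT, and no marker was at 0. The receptor chain gene Cd79a, 1 of the 11, had 185, 119 and 115 CPM in SF1 replicates 1, 2 and 3, against 288 and 258 CPM in WT. The part of cell makeup in the fall of Myc was not tested.

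Among 11040 other genes with a mean of at least 5 CPM, the 5 whose log2 CPM, centred on the gene's mean, followed that of Myc most closely over the 5 libraries were St3gal6, Grap, Rell2, Bhlha15 and Bfsp2. The largest distance from Myc in any library was between 0.0651 and 0.0996 on the log2 scale. St3gal6, a sialyltransferase gene, had 60.5, 37.0 and 40.9 CPM in SF1, against 85.7 and 83.7 CPM in WT. With 5 libraries in 2 groups this likeness is a description only.

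**Figure D5:**
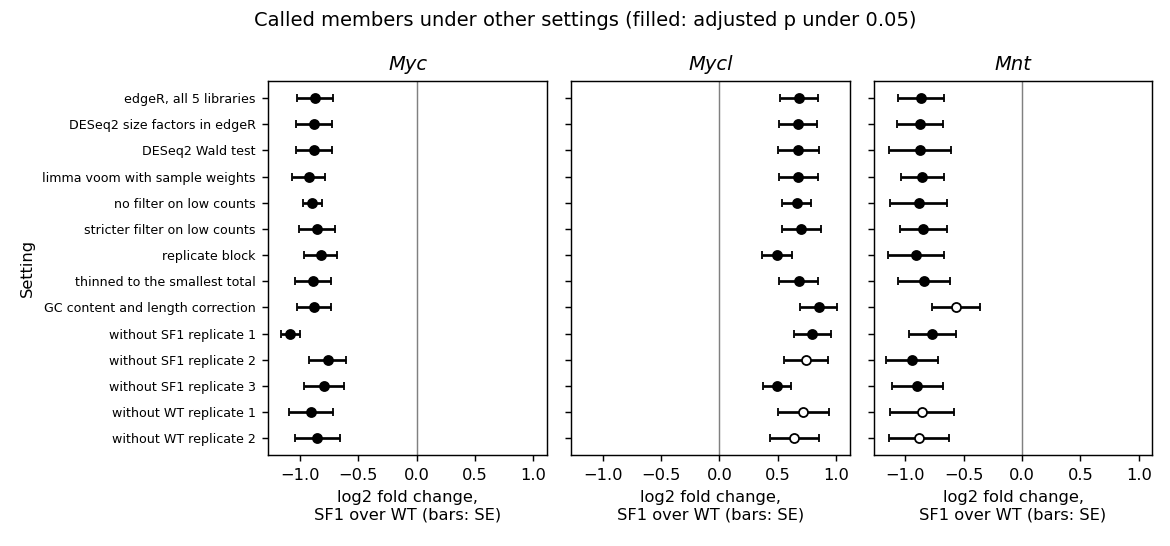
Points are log2 fold changes of SF1 over WT with standard errors for Myc, Mycl and Mnt under each setting, filled where the adjusted p is under 0.05. Myc is filled in all settings, while Mycl and Mnt have open points where WT replicate 1 or 2 is left out, Mycl also without SF1 replicate 2 and Mnt also with the GC content and length correction.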

How the data were processed

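The values are whole read counts by gene identifier, deposited by the authors in 1 table and not normalized. The submitters' processing notes name FastQC, featureCounts 2.0.1, HISAT2 2.2.1 and the GRCm38 build. No source used here gives the annotation release, strand setting or treatment of reads with several matches. Per the labels' protocols, SMART-Seq (version 2 or 4, which library had which is not stated) and Nextera XT gave the libraries. SMART-Seq libraries of this kind mark no strand, and no molecular identifiers are mentioned, so PCR copies may count as reads. Of 55487 identifiers 55227 matched GENCODE M21, which gave symbols, coordinates and exon lengths.

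SF1 was tested against WT with edgeR 4.0.16 (R 4.3.3), TMM scaling, filterByExpr with a minimum count of 10, the quasi-likelihood F test and Benjamini-Hochberg adjustment over all genes tested (threshold 0.05). Fold changes are SF1 over WT unless said otherwise, and SE comes from the log2 fold change and its F value. Levels are CPM after TMM scaling, per kb of exon where genes are compared. 3 counts came to between 0.147 and 0.337 CPM. Within groups no library repeated another (chi-square per degree of freedom between 6.38 and 8.81).

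Alternatives were DESeq2 1.42.0, limma 3.58.1 voom with sample weights, DESeq2 size factors, other filters, thinned counts, a GC content and length correction, a replicate block and leaving out each library. The test was checked on simulated counts with changes of known size. It recovered 18% of genes changed by 0.5 on the log2 scale, 59.2% of those changed by 1 and 98.0% of those changed by 2. Of 143 calls 8 were false. A gene that did not pass may therefore still differ between the groups. Members and lists were chosen with earlier results of these data known. Named are the 10 members, up to 4 genes of each list by smallest p, marker genes, the 5 genes nearest to Myc and Jak2. Odc1, Tfrc, Cdkn2b, Fbxw7 and the ribosome genes with the motif were chosen after their values were seen.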

Additional observations from a re-analysis of the deposited data

How the results depend on the processing

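Myc kept its direction and its call under all 13 other settings. The 2382 called genes became 1519 with the replicate block and between 986 (without WT replicate 1) and 2170 with 1 library left out. Members called higher, 1 in the report, numbered 3 with no filter on low counts and 3 with the GC content and length correction, and from 0 to 1 with 1 library left out. Members called lower, 2 in the report, numbered 1 with that correction and from 1 to 2 with 1 library left out, where Max took the place of Mnt without WT replicate 1. With 1 library left out, lower genes numbered from 10 to 16 in the ribosome list, 6 to 10 in the metabolic list, 2 to 4 in the translation list and 1 to 6 in the cell cycle list. The block gave 11 ribosome, 7 metabolic, 2 translation and 1 cell cycle gene, and the cell cycle count was 7 by DESeq2, 7 by limma and 8 with no filter. The causes were not tested.

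Signs turned only for genes that did not pass. Mycn was at 0.0079 with the stricter filter, 0.047 with the block, 0.071 with the correction and from -0.094 to 0.050 with 1 library left out. Mxi1 was at 0.0048, 0.020 and 0.028 under those 3 settings and from -0.19 to 0.19 with 1 library left out. With 1 library left out Max ranged from -0.66 to 0.27, Txnip from -0.070 to 0.24 and Mga from -0.25 to 0.046, and Zbtb17 was at 0.16 with the correction.

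Whether the replicate numbers pair the libraries is not known: the labels do not say, only 2 numbers are shared, and the correlations of deviations (0.0356 and 0.0646 for numbers 1 and 2) cannot settle it, since the deviations of 2 WT libraries mirror each other. Number 3 has only an SF1 library, so with the block SF1 replicate 3 adds nothing to the difference between the groups. The block is thus close to leaving that library out: Mycl was at 0.492 with the block and 0.493 without SF1 replicate 3. With the block Myc, Mycl and Mnt kept their calls, Phb, Hspd1, Mcm4, Mcm7, Cdc25a, Pes1 and Gadd45b missed the threshold (adjusted p between 0.0527 and 0.130), and Ndrg1 and Suds3 were called higher (0.0439 and 0.0472 adjusted). Leaving out a WT library leaves 1, which is then assumed to vary like the SF1 libraries. Depth limits Mnt most, with 54 counts in its lowest library.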
